A study of Mus musculus with 2 samples.

Results

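VISTA, the product of *Vsir*, its binding partner PSGL-1, the product of *Selplg*, and galectin-9, the product of *Lgals9*, were followed across all cell clusters of kidneys with nephrotoxic serum nephritis (NTN), a model in which antibodies from sheep injure the glomerulus. The 3 genes were taken by name from the 20299 genes of the single-cell table, and all 3 were detected in both libraries. One library came from WT mice and the other from *Vsir*-/- mice, which were bred from sperm of a knockout repository and carry the deletion in every cell. All mice were C57BL/6 males aged 8 weeks. All received 200 μg of sheep IgG in adjuvant and, according to the sample labels, 2 μL per g of sheep nephrotoxic serum 4 days later (the methods of the study state another dose), so that both groups share the injury and no uninjured library is part of the comparison. The number of mice behind each library is not given in the sources used here. With 1 library per genotype there was no replicate, so no test between genotypes was made and every interval below covers counting error only.

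VISTA is an immune checkpoint protein of the B7 family that is carried by myeloid cells and by resting T cells and restrains T cell activation. PSGL-1 is a mucin-like protein of leukocytes that binds selectins when they roll on endothelium, and it binds VISTA at acidic pH. Galectin-9 is a β-galactoside–binding lectin that binds TIM-3 and CD44 on T cells and has been described as a further partner of VISTA. In mouse kidneys, R1 macrophages are resident cells, whereas R2 macrophages are largely cells that infiltrate from the blood.

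The WT library held 5470 cells and 32799550 unique molecular identifiers (UMIs, each a counted transcript), and the *Vsir*-/- library held 1844 cells and 18601189 UMIs. The median cell had 4726.5 UMIs in the former and 6673 in the latter, and 5 cell barcodes occurred in both. The labels describe the WT library as sorted CD45+ leukocytes and the *Vsir*-/- library as all kidney cells, although the methods of the study state a CD45+ sort for the experiment. A UMI of *Ptprc*, which encodes CD45, was found in 94.2% of the WT library and 73.6% of the *Vsir*-/- library. Summed over 18 kidney tubule genes, the clusters ranged from 0 to 189.9 CPM (counts per 1000000 UMIs) in the WT library and from 1340 to 14424 CPM in the *Vsir*-/- library. *Emcn*, *Kdr*, and *Plvap*, genes of endothelial cells, together reached at most 7.56 CPM in any WT cluster but 1349 CPM in the *Vsir*-/- non–EM-like CD4+ T cell cluster and 2241 CPM in the *Vsir*-/- proliferating cluster. The 16 cluster names are those of the authors, and the B cell, neutrophil, NK cell, and macrophage lists were each highest in the cluster of that name in both libraries (for macrophages, R1). In the *Vsir*-/- non–EM-like CD4+ cluster, however, the 6 T cell transcripts summed to 398.9 CPM, against 5498 CPM in the same WT cluster, and 233 of its 349 *Vsir*-/- cells had none of them. The WT NKT cluster held 7787 CPM of NK cell markers, 1600 CPM of T cell markers, and 2473 CPM of B cell markers. The plasmacytoid dendritic cell list was highest in its own cluster (1681 CPM in the WT library), but monocyte-like markers stood at 4156 CPM there. The part of such transcripts in the values of these clusters was not tested.

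The promoters of *Vsir* and *Lgals9* are shown because neutrophils and M2-like R2 macrophages had the highest values of both genes. This holds among WT clusters with at least 50 cells, and it does not hold for every myeloid cluster. Each sequence is the RefSeq promoter window of 250 bases before and 50 bases after the start of the gene in build GRCm38.p6, written 5′ to 3′ along the gene. Capitals mark matches, on either strand, to the ETS core GGAAGT or to the interferon response element GAAANNGAAA. The first lies at chr10:60346601-60346900 on the plus strand and the second at chr11:78984875-78985174 on the minus strand.
Vsir: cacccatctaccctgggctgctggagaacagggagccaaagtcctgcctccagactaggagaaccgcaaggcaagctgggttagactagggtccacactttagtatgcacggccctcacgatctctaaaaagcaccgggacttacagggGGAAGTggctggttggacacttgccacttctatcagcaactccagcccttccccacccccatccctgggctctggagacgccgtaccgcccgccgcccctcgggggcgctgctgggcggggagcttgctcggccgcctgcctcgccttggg
Lgals9: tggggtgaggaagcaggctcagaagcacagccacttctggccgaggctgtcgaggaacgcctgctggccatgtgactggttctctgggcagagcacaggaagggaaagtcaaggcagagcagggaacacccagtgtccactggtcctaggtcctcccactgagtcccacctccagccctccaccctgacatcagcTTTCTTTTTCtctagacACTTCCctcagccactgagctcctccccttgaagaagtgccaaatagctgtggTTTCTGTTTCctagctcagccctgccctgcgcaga
The *Vsir* window held 1 ETS core, which began 101 bases before the start, and no interferon response element. The *Lgals9* window held 1 ETS core, which began 38 bases before the start, and 2 interferon response elements, which began 55 bases before and 15 bases after it. The matches did not overlap each other. Of all 32851 promoter windows of this length, 23.8% held the ETS core and 3.44% held the interferon response element. The match is one of letters, and binding of a factor was not measured. In the GRCm38 annotation *Vsir* lies within *Cdh23*, on the opposite strand, and no exon of the pair overlaps.

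*Vsir* transcripts were found in every cluster of the WT library, and the highest levels were in neutrophils, M2-like R2 macrophages, and R1 macrophages. Neutrophils had 281 CPM (interval 261 to 303) from 698 UMIs. M2-like R2 macrophages had 275 CPM (260 to 291) from 1207 UMIs, which was 28.2% of all *Vsir* UMIs of the library. R1 macrophages had 235 CPM (199.9 to 274) from 163 UMIs. Neighbours among these 3 clusters could not be ordered by their counts. Neutrophils exceeded M2-like R2 macrophages by 1.02-fold (0.932 to 1.12), and M2-like R2 macrophages exceeded R1 macrophages by 1.17-fold (0.994 to 1.39), while neutrophils exceeded R1 macrophages by 1.20-fold (1.01 to 1.43). R1 macrophages stood clear of the next large cluster, EM-like CD4+ T cells, by 1.71-fold (1.42 to 2.06). When every cell was thinned to 1000 UMIs, R1 macrophages came first at 367 CPM, a value from 40 UMIs in 109 cells. When each cell was given the same weight they had 285 CPM beside 285 CPM in neutrophils. The place of R1 among the leading 3 thus differed between settings, and so few thinned UMIs do not settle it. The intervals of the thinned shares of cells overlapped, at 21.0 to 38.8% in R1 macrophages and 21.1 to 28.9% in neutrophils. The WT R1 cluster also held 1131 CPM of B cell markers and 1734 CPM of neutrophil markers, whose part in its *Vsir* level was not tested.

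In the WT library, monocyte-like markers summed to 4396 CPM in the other R2 macrophages and to 11581 CPM in M2-like R2 macrophages. For *Vsir*, the other R2 macrophages had 99.1 CPM (82.6 to 118). M2-like R2 macrophages exceeded them 2.77-fold (2.31 to 3.35) and R1 macrophages exceeded them 2.37-fold (1.87 to 3.01). *Vsir* thus differed within the R2 macrophages, and the other R2 cells did not differ beyond counting error from non–EM-like CD4+ T cells, whose ratio to them was 1.06 (0.867 to 1.30).

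The 4 large T cell clusters carried *Vsir* at a lower level than neutrophils, M2-like R2 macrophages, and R1 macrophages, and EM-like CD4+ cells, which have the genes of effector memory cells, led among these 4. EM-like CD4+ cells had 137 CPM (124 to 151). Non–EM-like CD8+ cells had 114 CPM (105 to 124), non–EM-like CD4+ cells 105 CPM (95.5 to 115), and EM-like CD8+ cells 91.1 CPM (71.7 to 114). EM-like CD4+ cells exceeded non–EM-like CD4+ cells 1.31-fold (1.14 to 1.5) and EM-like CD8+ cells 1.5-fold (1.17 to 1.95). In the CD8+ lineage the direction was the opposite, with non–EM-like cells 1.26-fold higher than EM-like cells, but the interval of 0.986 to 1.62 included no difference. The 4 T cell clusters together held 35.2% of the *Vsir* UMIs of the library, and the 3 macrophage clusters held 35.0%. Of all 32799550 UMIs the former held 13142481 and the latter 6369010, so their *Vsir* levels were 115 and 235 CPM.

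Low levels closed the order. Proliferating cells had 62.7 CPM (52.2 to 74.6), NK cells 58.3 CPM (50.8 to 66.5), and NKT cells 49.9 CPM (31.6 to 74.8). ILC2 had 19.8 CPM (8.56 to 39.1) and B cells 19.2 CPM (14.9 to 24.4), and this last pair could not be told apart. The counts separated 4 of the 12 neighbouring pairs in the order of the 13 WT clusters with at least 50 cells. Of the 3 clusters with fewer cells, γδ T cells had 224 CPM (172 to 287) in 46 cells, plasmacytoid dendritic cells 193 CPM (143 to 253) in 21 cells, and basophils 144 CPM (89.4 to 221) in 25 cells.

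The share of cells with a *Vsir* UMI followed depth as well as level. It was 74.3% (70.1 to 78.3) in M2-like R2 macrophages, whose median cell had 9699 UMIs, and 61.5% (57.1 to 65.6) in neutrophils, whose median cell had 3565. After thinning to 1000 UMIs the shares were 22.2% (18.3 to 26.6) and 24.9% (21.1 to 28.9), with 29.4% (21.0 to 38.8) in R1 macrophages. In B cells, the cluster with the lowest level, 5.78% (4.4 to 7.44) of cells held a *Vsir* UMI at a median of 3426 UMIs, and 2.11% (1.30 to 3.24) did after thinning. Whether these UMIs were expressed by B cells or came from other cells was not tested. In M2-like R2 macrophages 45.4% of cells had 3 or more *Vsir* UMIs, while in B cells 0.206% did.

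**Figure D1:**
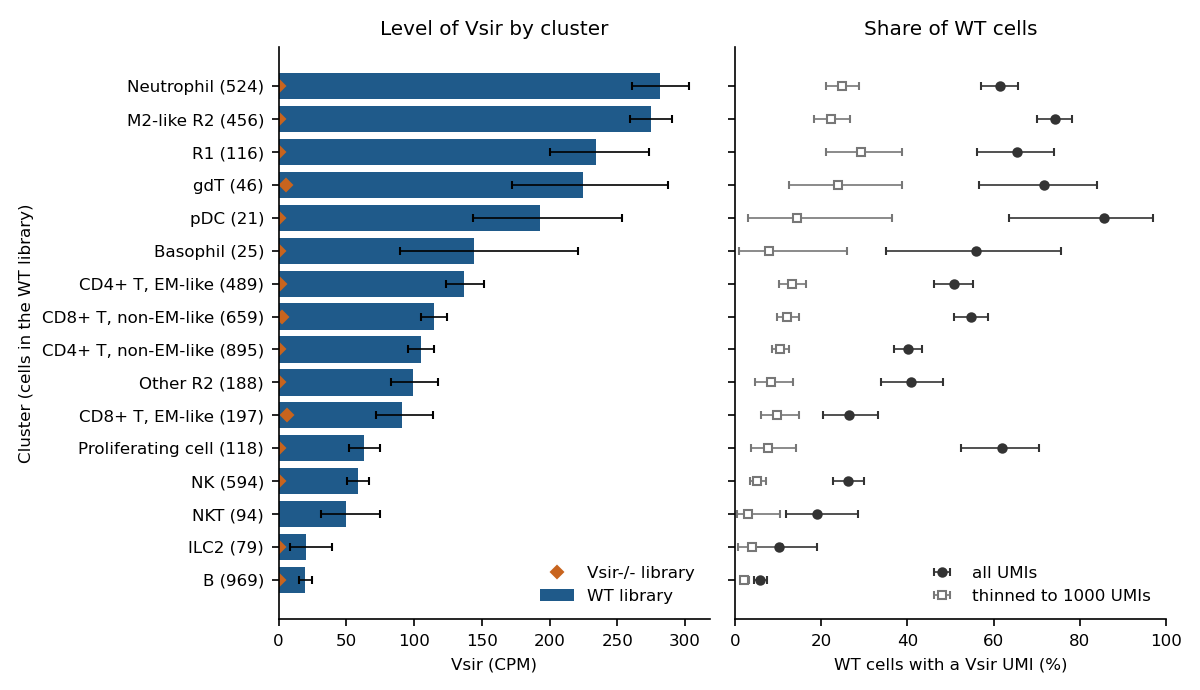
The left panel shows *Vsir* in CPM for each of the 16 clusters, with bars for the WT library, 95% Poisson intervals, and diamonds for the *Vsir*-/- library. The right panel shows the percent of WT cells with a *Vsir* UMI, with all UMIs (filled circles) and after thinning to 1000 UMIs (open squares), with 95% Clopper-Pearson intervals. Neutrophils, M2-like R2 macrophages, and R1 macrophages lead among clusters of at least 50 cells with 281, 275, and 235 CPM, and no diamond lies above 6.02 CPM.

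*Vsir* was nearly absent from the *Vsir*-/- library, as its label states. There were 8 UMIs in all (0.430 CPM), against 4278 UMIs (130 CPM) in the WT library, a ratio of 303-fold (154 to 703). The 8 UMIs lay in 8 different cells, 2 in each CD4+ cluster and 1 each in EM-like CD8+ T cells, non–EM-like CD8+ T cells, γδ T cells, and M2-like R2 macrophages. The other 9 *Vsir*-/- clusters had none, and none of the 8 cells had a barcode shared with the WT library. In R1 macrophages, 0 UMIs stood against 163 in the WT library, so the level was at least 125-fold lower (taking 3 counts over the cluster as the limit of a count of 0). By the same limit it was at least 72.9-fold lower in neutrophils. By the exact interval, which also covers WT counting error, the log2 ratio lay below −6.653 in R1 macrophages and −5.885 in neutrophils. In M2-like R2 macrophages 1 UMI against 1207 gave a log2 ratio of −8.85 (−14.15 to −6.37). Which exons the deletion removes is not given in the sources used here, and the 3′ tag of this chemistry reads only the end of a transcript.

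*Selplg* was more widely spread than *Vsir* and ranked the WT clusters differently. Neutrophils had 701 CPM (668 to 734), EM-like CD8+ T cells 651 CPM (597 to 709), and NK cells 617 CPM (592 to 643), and the order of neighbours among these 3 was within counting error. EM-like CD4+ T cells followed at 478 CPM (453 to 504) and non–EM-like CD8+ T cells at 437 CPM (419 to 456). Macrophages stood lower. M2-like R2 macrophages had 373 CPM (355 to 392), the other R2 macrophages 291 CPM (262 to 322), and R1 macrophages 255 CPM (219 to 295). Non–EM-like CD4+ T cells had 333 CPM (317 to 351), proliferating cells 387 CPM (360 to 415), NKT cells 403 CPM (347 to 466), and ILC2 340 CPM (285 to 401). B cells were lowest at 64.3 CPM (56.2 to 73.3), and R1 macrophages, the next above them, were 3.96-fold higher (3.23 to 4.84).

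Within each T cell lineage the EM-like cluster had more *Selplg* than the non–EM-like cluster in the WT library, by 1.49-fold (1.35 to 1.64) in CD8+ cells and 1.43-fold (1.33 to 1.55) in CD4+ cells. The NK cell list (*Ncr1*, *Klrb1c*, *Eomes*, *Gzma*) stood at 12797 against 80.2 CPM in these CD8+ clusters and at 732 against 38.4 CPM in the CD4+ clusters. Markers of γδ T cells were found in 51.3% of EM-like and 2.58% of non–EM-like CD8+ cells. The part of such transcripts in the contrasts between EM-like and non–EM-like clusters was not tested. The 4 T cell clusters held 41.1% of the *Selplg* UMIs of the WT library and the 3 macrophage clusters 16.1%, at levels of 424 and 344 CPM. Of the small clusters, γδ T cells had 709 CPM (614 to 815), plasmacytoid dendritic cells 586 CPM (497 to 685), and basophils 502 CPM (393 to 631). *Selplg* was detected in 91.0% of neutrophils, 91.3% of NK cells, and 18.4% of B cells, and after thinning in 54.7%, 48.4%, and 5.39%.

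In the *Vsir*-/- library *Selplg* was lower in 9 of the 10 clusters that had at least 50 cells in both libraries. Over all cells it had 2934 UMIs (158 CPM) against 13573 UMIs (414 CPM), but the libraries differ in their mix of cells, so the clusters are the fairer comparison. In neutrophils the level was 465 CPM (418 to 515) against 701 CPM, a log2 ratio of −0.59 (−0.76 to −0.43). In M2-like R2 macrophages it was 213 CPM (191 to 236) against 373 CPM, a log2 ratio of −0.81 (−0.98 to −0.65). In R1 macrophages it was 137 CPM (120 to 157) against 255 CPM, a log2 ratio of −0.89 (−1.18 to −0.60). The 3 myeloid clusters that led for *Vsir* in the WT library were thus all lower for *Selplg* in the library without *Vsir*, with intervals below 0. Some markers of other cells rose in the same clusters and others fell. Tubule genes went from 189.9 to 2702 CPM in R1 macrophages and from 20.9 to 1459 CPM in M2-like R2 macrophages. In neutrophils they went from 4.43 to 3773 CPM. Endothelial markers went from 31.7 to 741 CPM in R1 macrophages, and macrophage markers from 675 to 2030 CPM in M2-like R2 macrophages. In R1 macrophages T cell markers went from 574 to 20.6 CPM and neutrophil markers from 1734 to 131 CPM. In M2-like R2 macrophages neutrophil markers went from 4316 to 242 CPM and NK cell markers from 463 to 89.5 CPM, and in neutrophils T cell markers went from 451 to 55.3 CPM. *Ptprc* itself went from 1097 to 620.2 CPM in R1 macrophages, from 1168 to 929 CPM in M2-like R2 macrophages, and from 1479.7 to 1166 CPM in neutrophils. The part of these differences in the *Selplg* ratios was not tested. Among cells with a *Ptprc* UMI the *Selplg* log2 ratio was −0.88 in R1 macrophages, −0.80 in M2-like R2 macrophages, and −0.58 in neutrophils.

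T cells and NK cells showed the same direction. EM-like CD4+ T cells had 323 CPM (295 to 352) in the *Vsir*-/- library against 478 CPM, a log2 ratio of −0.57 (−0.72 to −0.42). The log2 ratio was −0.58 (−0.85 to −0.33) in non–EM-like CD8+ T cells, −0.40 (−0.60 to −0.21) in NK cells, and −0.85 (−1.15 to −0.55) in the other R2 macrophages. *Ptprc* also fell, from 983 to 694 CPM for the non–EM-like CD8+ cluster and from 1314 to 961 CPM for EM-like CD4+ cells. NK cells went from 2014 to 1742 CPM of it, and the other R2 macrophages rose from 1501 to 1536 CPM. T cell markers fell for that CD8+ cluster (4514 to 3266 CPM) but not for EM-like CD4+ cells (5060 to 5129 CPM). Tubule genes reached at most 9.37 CPM in these WT clusters but at least 2162 CPM for *Vsir*-/-. The part of such shifts in the ratios was not tested. EM-like CD8+ T cells, with 28 *Vsir*-/- cells, gave a *Selplg* log2 ratio of −0.30 (−0.64 to 0.03). For γδ T cells, with 28 cells, it was −0.29 (−0.64 to 0.06), so that no difference was within counting error in either cluster. In plasmacytoid dendritic cells the log2 ratio was −0.92 (−1.20 to −0.64) and in ILC2 −1.10 (−1.81 to −0.46). B cells went the other way, with 89.6 CPM (65.8 to 119) against 64.3 CPM, a log2 ratio of 0.48 whose interval of −0.01 to 0.94 included 0. After thinning this ratio was −0.98, but it rested on 2 *Vsir*-/- UMIs, too few to give a direction. The *Vsir*-/- B cell cluster was mixed by its markers. B cell markers were found in 51.1% of its cells (2122 CPM, against 5678 CPM in the WT library) and *Ptprc* in 56.8%. Macrophage markers were found in 71.6%, at 701 CPM against 16198 CPM in *Vsir*-/- R1 macrophages, and tubule genes stood at 6397 CPM. Among its cells with *Ptprc* the *Selplg* log2 ratio was 0.15. The part of the other transcripts in the B cell values was not tested.

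Leaving out B cells, non–EM-like CD4+ T cells, and proliferating cells, the log2 ratios of the 7 remaining large clusters ran from −0.89 to −0.40, while the median of all genes tested in them lay between −0.06 and 0.07. None of the 7 passed 2-fold, and in B cells *Selplg* did not either. Single genes often varied as much between these libraries: *Selplg* stood at percentile 9.75 of the genes tested in M2-like R2 macrophages, 11.2 in R1 macrophages, 12.9 in EM-like CD4+ T cells, and 21.0 in neutrophils. At least 2-fold lower in the *Vsir*-/- library were 7.61% of the genes tested in M2-like R2 macrophages, 8.78% in R1 macrophages, 5.41% in EM-like CD4+ T cells, and 10.6% in neutrophils. The share was 9.66% in non–EM-like CD8+ T cells, 7.01% in NK cells, 9.52% in the other R2 macrophages, and 15.9% in B cells. The direction of *Selplg* was shared by these clusters, but they come from the same pair of libraries and are not replicates of one another.

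In the 2 large clusters where *Selplg* passed 2-fold, most *Vsir*-/- cells had no *Ptprc* UMI, which was found in 30.4% of non–EM-like CD4+ T cells and 37.0% of proliferating cells. Macrophage markers were found in 78.2% and 79.9% of these cells. In non–EM-like CD4+ T cells it had 29.1 CPM (24.4 to 34.5) against 333 CPM, a log2 ratio of −3.52 (−3.78 to −3.26). In proliferating cells it had 52.2 CPM (45.7 to 59.4) against 387 CPM, a log2 ratio of −2.89 (−3.11 to −2.68). In these clusters 10.7% and 9.0% of genes were at least 2-fold lower. The medians of all genes were raised to 0.91 and 0.51, relative to which *Selplg* was at −4.43 and −3.40. The level of *Ptprc* was also lower in both *Vsir*-/- clusters. It stood at 89.8 CPM, beside 948 CPM for WT, in the non–EM-like CD4+ cluster. The proliferating cluster held 144 CPM of *Ptprc*, beside 1010 CPM for WT. The part of this lower *Ptprc* level in the *Selplg* ratios was not tested. In the *Vsir*-/- non–EM-like CD4+ cluster 233 of 349 cells had none of the 6 T cell transcripts, and these cells held 2 *Selplg* UMIs (0.592 CPM), while the 116 cells with such a transcript had 108 CPM (90.6 to 128). Among cells with a T cell transcript the log2 ratio to the WT cluster was −1.62, and among cells with *Ptprc* it was −1.56, so the gap shrank but the direction stayed. After thinning, the cells with a T cell transcript had 191 CPM against 365 CPM in the WT library. Those with *Ptprc* had 200 CPM against 366 CPM. Both gaps were under 2-fold and rested on 22 and 21 *Vsir*-/- UMIs. In proliferating cells with *Ptprc* the log2 ratio was −1.53, and after thinning the levels were 157 CPM against 435 CPM, from 11 *Vsir*-/- UMIs.

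**Figure D2:**
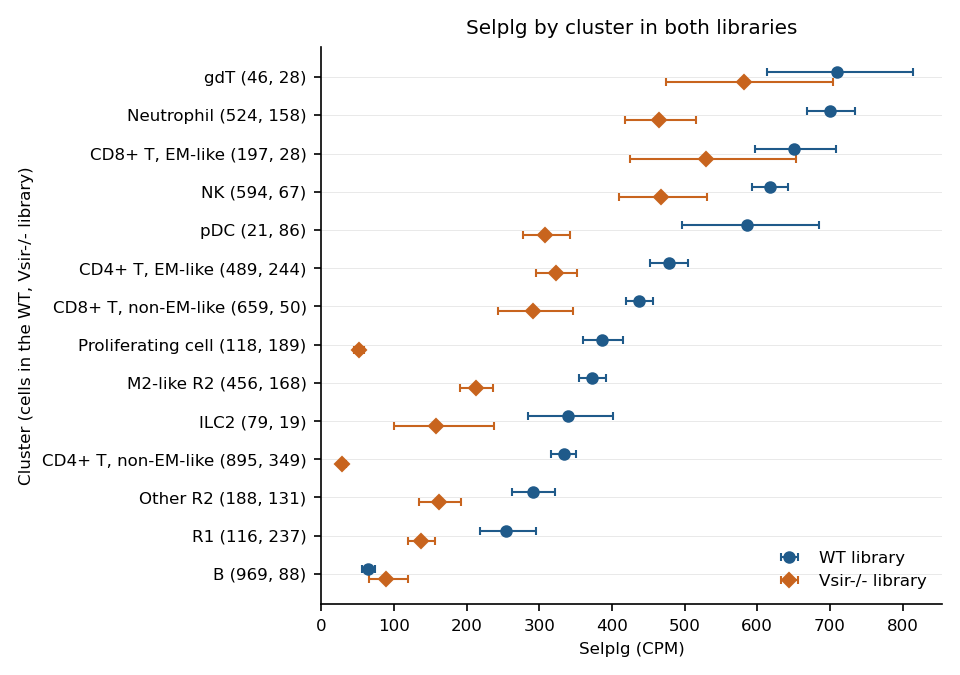
*Selplg* in CPM (horizontal axis) for 14 clusters, with circles for the WT library, diamonds for the *Vsir*-/- library, and 95% Poisson intervals; cell numbers stand beside each cluster name, and basophils, with 2 *Vsir*-/- cells, are not drawn. The diamonds lie to the left of the circles in every cluster drawn except B cells, with the largest ratio in non–EM-like CD4+ T cells (29.1 against 333 CPM).

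*Lgals9* varied less among WT clusters than the other members, and no pair of neighbours in its order of 13 clusters was separated by the counts. M2-like R2 macrophages had 137 CPM (127 to 149) and neutrophils 124 CPM (111 to 139). NKT cells had 106 CPM (78.6 to 140), EM-like CD4+ T cells 97.0 CPM (85.9 to 109), EM-like CD8+ T cells 93.5 CPM (73.8 to 117), R1 macrophages 92.1 CPM (70.9 to 118), and NK cells 77.2 CPM (68.5 to 86.6). The lowest were B cells at 53.7 CPM (46.3 to 62.0), non–EM-like CD8+ T cells at 52.2 CPM (46.1 to 58.9), and the other R2 macrophages at 47.6 CPM (36.4 to 61.2). Comparisons further apart did separate. M2-like R2 macrophages exceeded the other R2 macrophages 2.88-fold (2.21 to 3.82), and EM-like cells exceeded non–EM-like cells 1.62-fold (1.36 to 1.93) in the CD4+ lineage and 1.79-fold (1.37 to 2.32) in the CD8+ lineage. A *Lgals9* UMI was found in 58.3% of M2-like R2 macrophages and 16.7% of B cells, and after thinning in 12.5% and 4.43%.

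Between the libraries *Lgals9* moved in both directions. It was lower in the *Vsir*-/- library in M2-like R2 macrophages, at 97.9 CPM (83.5 to 114) against 137 CPM, a log2 ratio of −0.49 (−0.75 to −0.24). It was also lower in neutrophils, at 87.5 CPM (68.0 to 111) against 124 CPM and a log2 ratio of −0.50 (−0.90 to −0.12), and in EM-like CD4+ T cells, at 71.0 CPM (58.5 to 85.4) against 97.0 CPM and a log2 ratio of −0.45 (−0.78 to −0.13). Higher values stood in proliferating cells, at 144 CPM (133 to 156) against 70.6 CPM and a log2 ratio of 1.03 (0.77 to 1.30), in B cells, at 80.1 CPM (57.7 to 108) against 53.7 CPM and a log2 ratio of 0.58 (0.06 to 1.07), and in non–EM-like CD4+ T cells, at 79.8 CPM (71.9 to 88.4) against 59.9 CPM and a log2 ratio of 0.41 (0.18 to 0.65). The share of cells with a *Lgals9* UMI was 49.7% in *Vsir*-/- proliferating cells against 61.0% in the WT library. It was 17.0% against 16.7% in B cells and 16.6% against 23.9% in non–EM-like CD4+ T cells. Of the 42 *Lgals9* UMIs of the *Vsir*-/- B cells, 11 lay in 1 cell, and 15 of 88 cells held any. The intervals do not cover such clumping. The intervals of R1 macrophages (0.26, from −0.16 to 0.69), NK cells, non–EM-like CD8+ T cells, and the other R2 macrophages included 0. Proliferating cells were the only one of the 10 large clusters past 2-fold, and 37.5% of the genes tested there were at least 2-fold higher. In the clusters that did not pass, 13.6% of genes were at least 2-fold higher in R1 macrophages, 11.1% in non–EM-like CD8+ T cells, 16.3% in B cells, 9.86% in NK cells, and 6.71% in the other R2 macrophages. Against the raised median of all genes the value in non–EM-like CD4+ T cells, where 47.8% of genes were at least 2-fold higher, became −0.50.

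**Figure D3:**
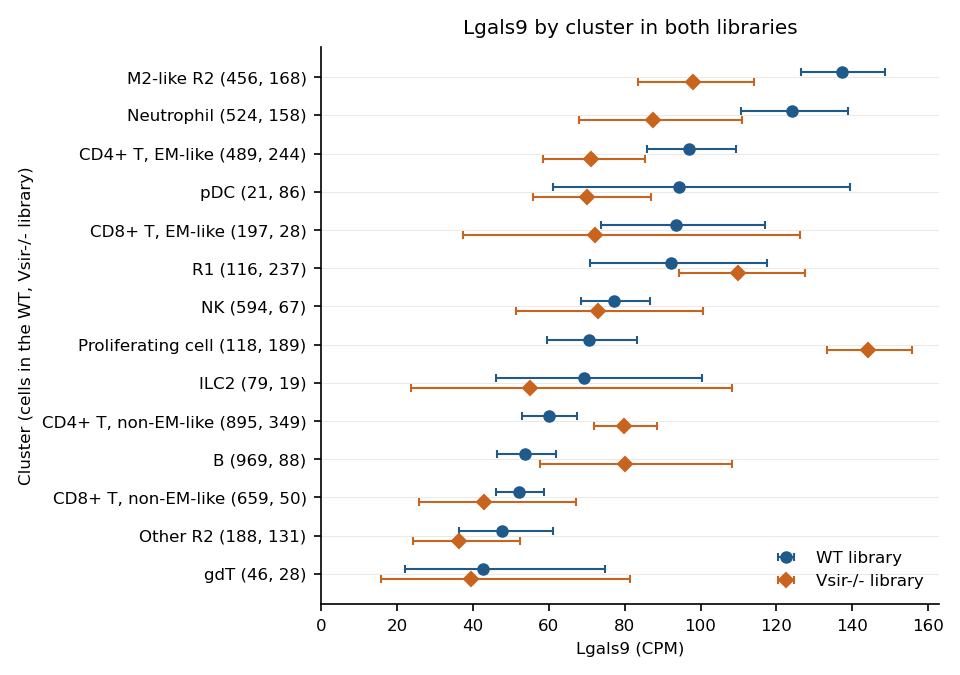
*Lgals9* in CPM (horizontal axis) for 14 clusters, with circles for the WT library, diamonds for the *Vsir*-/- library, and 95% Poisson intervals; cell numbers stand beside each cluster name, and basophils are not drawn. M2-like R2 macrophages lead in the WT library (137 CPM), whereas proliferating cells lead in the *Vsir*-/- library (144 CPM).

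Among *Vsir*-/- cells of 2 clusters that had neither *Ptprc* nor a T cell transcript, *Lgals9* was higher in those with endothelial markers than in those without. The non–EM-like CD4+ and proliferating clusters held 57.0% of the *Lgals9* UMIs of the *Vsir*-/- library. The former held 20.8% of them and 4597667 of the 18601189 UMIs of all genes, and the latter 36.3% and 4444666. Much of the 57.0% thus reflects the size of these clusters. In them, 324 cells had neither *Ptprc* nor a T cell transcript. Of these, 76 cells had at least 3 of the 4 endothelial markers *Pecam1*, *Emcn*, *Kdr*, and *Plvap*, and their *Lgals9* level was 232 CPM (211 to 254) from 475 UMIs. The 183 cells with none of the 4 markers had 8 *Lgals9* UMIs (3.50 CPM, 1.51 to 6.89), a difference of 66.3-fold (33.4 to 154). The 76 marked cells had *Emcn* at 2411 CPM and *Kdr* at 1336 CPM, and alone held 26.9% of all *Lgals9* UMIs of that library. Their median cell had 17935 UMIs and the unmarked cells 9540, and in cells thinned to 1000 UMIs a *Lgals9* UMI was found in 22.4% of marked cells and in 0 of 177 unmarked cells, a count that allows for 1.69% at most. The unmarked cells carried tubule genes, with *Slc34a1*, the sodium-phosphate cotransporter of the proximal tubule, at 1496 CPM.

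*Selplg* was at the floor in these cells, with 3 UMIs in all 324. *Vsir* had 0 UMIs there, but the gene is deleted in this library. That count therefore does not show whether such cells express *Vsir*. When cells with any *Emcn*, *Kdr*, or *Plvap* UMI were left out of both libraries, the *Lgals9* log2 ratio became −3.44 for the non–EM-like CD4+ cluster, −1.35 for proliferating cells, and −0.30 for B cells. Such cells were 33.8% of the *Vsir*-/- and 0.112% of the WT non–EM-like CD4+ cluster, and 49.2% and 0% of the proliferating cluster. The filter thus acted almost only on the *Vsir*-/- side, where the cells kept included the unmarked ones with tubule genes. Keeping the cells with a *Ptprc* UMI instead left it positive, at 1.23, 0.87, and 0.60 for the same 3 clusters. Without the cells that held *Emcn*, *Kdr*, or *Plvap*, the gene was lower in the *Vsir*-/- library in 9 of the 10 large clusters, with a median log2 ratio of −0.52 in place of −0.18. That alternative was chosen after the values were seen, and with *Ptprc* cells the gene was lower in 6 of the 10.

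**Figure D4:**
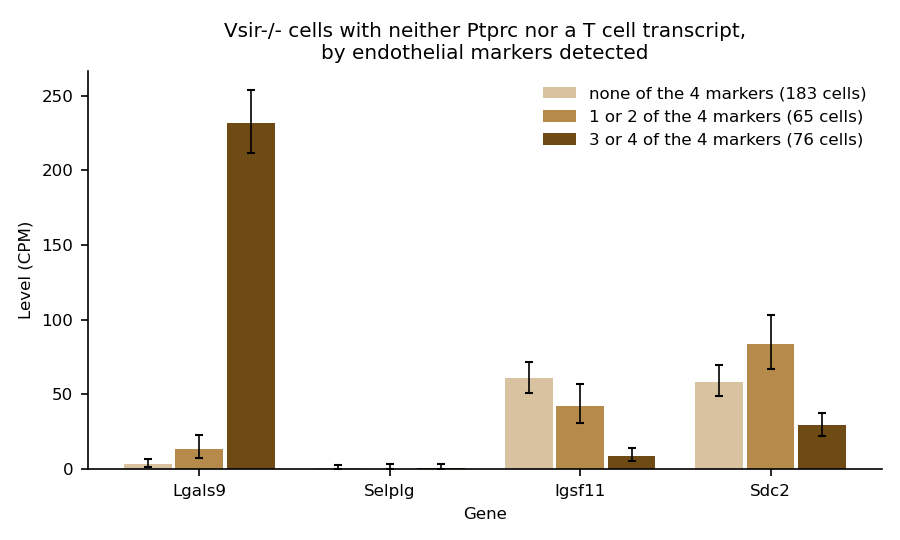
Levels in CPM of *Lgals9*, *Selplg*, *Igsf11*, and *Sdc2* in 324 cells of the *Vsir*-/- library that lay in the non–EM-like CD4+ or proliferating cluster and had neither *Ptprc* nor a T cell transcript, grouped by how many of *Pecam1*, *Emcn*, *Kdr*, and *Plvap* each cell showed, with 95% Poisson intervals. *Lgals9* is at 3.50 CPM in cells with no marker and 232 CPM in cells with 3 or 4, *Selplg* is under 1 CPM, and *Igsf11* is highest in cells with none.

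**Figure D5:**
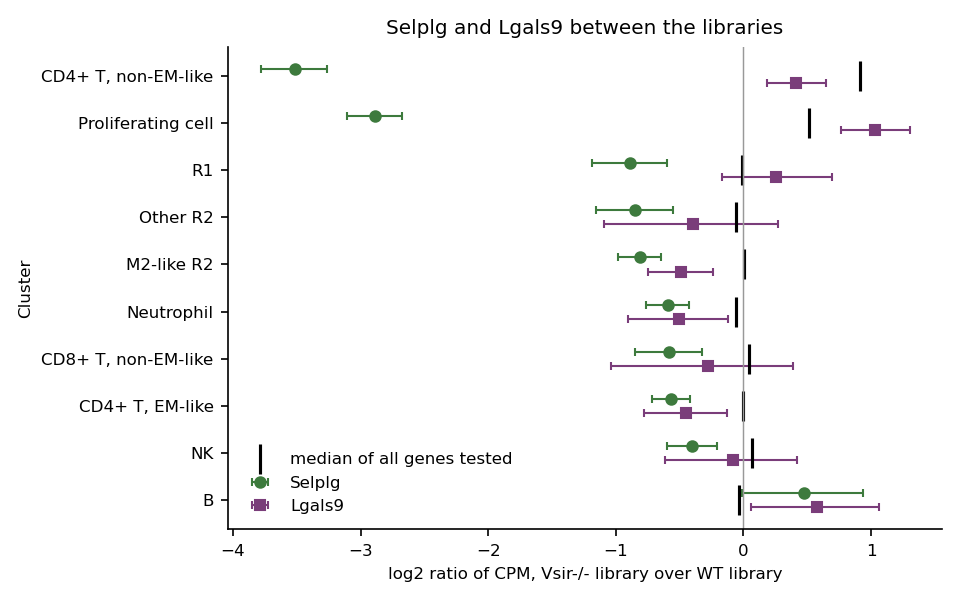
Log2 ratio of CPM, *Vsir*-/- library over WT library, for *Selplg* (circles) and *Lgals9* (squares) in the 10 clusters with at least 50 cells in both libraries, with exact 95% intervals; black ticks mark the median of all genes tested in each cluster. *Selplg* is below 0 in 9 clusters and *Lgals9* in 6, and the ticks leave 0 by more than 0.1 only in proliferating cells (0.51) and non–EM-like CD4+ T cells (0.91).

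Other described partners of VISTA were sparse or absent in WT leukocytes. Of the 6 genes of this list, *Igsf11*, *Sdc2*, and *Vsig8* had 0 UMIs in the WT library, which allows a level of up to 0.0915 CPM. *Lrig1*, a negative regulator of growth factor receptors, had 97 UMIs there (2.96 CPM) and was highest in non–EM-like CD4+ T cells at 8.75 CPM. In the *Vsir*-/- library *Igsf11*, which encodes a cell adhesion protein, had 299 UMIs (16.1 CPM), *Sdc2*, which encodes the heparan sulfate proteoglycan syndecan-2, had 397 (21.3 CPM), and *Vsig8* had 4. Of these, 67.2% of *Igsf11* UMIs and 70.8% of *Sdc2* UMIs lay in the 324 cells without *Ptprc* or a T cell transcript. Cells with none of the endothelial markers had *Igsf11* at 60.8 CPM, 6.92-fold (4.22 to 12.0) above cells with 3 or 4 markers, and *Sdc2* at 58.6 CPM, 2.00-fold (1.47 to 2.76) above them. *Selplg* and *Lgals9* were thus the members of the list that WT leukocytes expressed at more than 10 CPM.

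Transcripts of 2 selectins that PSGL-1 binds were sparse in the WT library. *Selp*, for P-selectin, had 87 UMIs in the WT library and was highest in neutrophils at 17.7 CPM. *Sele*, for E-selectin, an endothelial protein, had 12 UMIs in the WT library and 53 in the *Vsir*-/- library, where proliferating cells led at 10.3 CPM.

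Enzymes that glycosylate or sulfate PSGL-1 mostly stayed within 2-fold in myeloid cells, as did most genes tested, so these counts do not set the list apart. Of 13 genes, 12 could be tested in M2-like R2 macrophages and none passed 2-fold in either direction. Their median log2 ratio was −0.19 beside 0.01 for all genes, of which 7.61% were at least 2-fold lower and 8.11% higher. In neutrophils 1 of 8 was at least 2-fold lower and in R1 macrophages 1 of 11, both being the sialyltransferase *St3gal4*, beside 10.6% and 8.78% of all genes, and none was higher, beside 9.99% and 13.6% of all genes. In EM-like CD4+ T cells the 1 of 9 that was higher was *Gcnt1*, which builds the branched O-glycan used in selectin binding (28.5 against 13.9 CPM), beside 10.4% of all genes. *Tpst2*, a tyrosine sulfotransferase, was highest in WT EM-like CD8+ T cells at 209 CPM, and *Galnt1* and *B4galt1* reached 119 CPM in ILC2 and 87.3 CPM in NK cells. In non–EM-like CD4+ T cells 6 of 11 were higher and 1 was lower, with a median of 1.5 beside 0.91 for all genes, where 47.8% were higher and 10.7% lower.

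Proteins that bind the tail of PSGL-1 inside the cell include the ERM proteins that link it to actin (*Msn*, *Ezr*, *Rdx*), a sorting nexin (*Snx20*), and the kinase SYK (*Syk*). None of the 5 passed 2-fold in M2-like R2 macrophages or neutrophils, where the medians were −0.25 and −0.31. Of all genes tested, 7.61% were lower and 8.11% higher in the former, and 10.6% and 9.99% in the latter, so a count of 0 of 5 does not set the list apart. *Msn* was highest in the other R2 macrophages of both libraries, at 1118 CPM in the WT library and 1339 CPM in the *Vsir*-/- library. In R1 macrophages *Ezr* was lower (157 to 74.9 CPM) and *Rdx* higher (73.4 to 194 CPM), beside 8.78% and 13.6% of all genes. *Snx20*, like *Selplg*, was lower in non–EM-like CD4+ T cells, at 10.7 CPM against 92.7 CPM, and *Rdx* was at least 2-fold higher there. Of all genes tested in that cluster, 10.7% were at least 2-fold lower and 47.8% higher, and most of its *Vsir*-/- cells had no *Ptprc* UMI.

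Among partners of galectin-9, *Cd44*, an adhesion receptor, was highest in neutrophils (728 CPM in the WT library, 595 CPM in the *Vsir*-/- library), and *P4hb*, a disulfide isomerase, was highest in WT M2-like R2 macrophages (165 CPM). *Havcr2*, which encodes TIM-3, was highest in the other R2 macrophages of both libraries (99.9 and 107 CPM) and was lower in *Vsir*-/- R1 macrophages (50.4 to 17.5 CPM). *Pdcd1*, which encodes PD-1, was highest in EM-like CD4+ T cells of either library (45.3 and 27.9 CPM). Of the 6 genes none of 3 tested passed 2-fold in M2-like R2 macrophages (7.61% of all genes lower, 8.11% higher) or in neutrophils (10.6% lower, 9.99% higher). The galectin list, which also holds a gene of a galectin-binding protein, ranked cells in several ways: *Lgals1* was highest in NK cells (3524 and 3058 CPM), *Lgals3* in M2-like R2 macrophages (2024 and 1833 CPM), and *Lgals3bp*, which encodes a protein bound by galectin-3, in R1 macrophages (288 and 329 CPM). Of 9 genes of this list in the table, 5 could be tested in M2-like R2 macrophages and none passed 2-fold, beside 7.61% of all genes lower and 8.11% higher. In neutrophils 1 of 5 was lower, *Lgals1* (168 to 27.0 CPM), beside 10.6% of all genes.

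The genes whose pattern over the 13 large WT clusters was most like that of each member were ranked among 6387 genes by Pearson's r of log2(CPM + 1), a description in which the clusters share 1 library. For *Vsir* they were *Slfn1* (0.90), *Flot2* (0.85), *Tnfrsf1a* (0.83), *Isg15* (0.83), and *Dtx3l* (0.83). For *Selplg* they were *Sema4a* (0.91), *Vps26b* (0.91), *Atp8b4* (0.87), *Notch1* (0.87), and *Fxyd5* (0.86). *Sema4a*, *Atp8b4*, and *Fxyd5* were also close to *Selplg* over the 11 large *Vsir*-/- clusters (0.80, 0.89, and 0.85), whereas *Vps26b* (0.35) and *Notch1* (−0.27) were not. For *Lgals9* they were *Tspo* (0.90), *1600014C10Rik* (0.82), *Glrx* (0.80), *Arfip1* (0.79), and *Card19* (0.79). Among the members, r was 0.48 for *Vsir* and *Selplg*, 0.52 for *Vsir* and *Lgals9*, and 0.47 for *Selplg* and *Lgals9* in the WT library. The last pair had r = −0.33 in the *Vsir*-/- library, in which *Lgals9* was highest in the proliferating cluster and *Selplg* lowest in the non–EM-like CD4+ and proliferating clusters.

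*Vsir* and *Selplg* were found in the same cells about as often as their separate shares would give in the WT clusters with the most cells holding both. In cells thinned to 1000 UMIs, 67 of 503 neutrophils held both, against 68.3 from the product of the shares, and 31 of 409 M2-like R2 macrophages held both, against 28.3. In EM-like CD4+ T cells the numbers were 25 of 479 against 24.6. Clusters with fewer such cells scattered more, with 7 against 3.75 in the other R2 macrophages, 11 against 8.42 in EM-like CD8+ T cells, 11 against 14.5 in NK cells, and 1 against 3.10 in proliferating cells. At this depth a cell can express either gene and show no UMI of it. In thinned neutrophils 125 of 503 cells held a *Vsir* UMI and 275 a *Selplg* UMI. Cells of one gene alone thus cannot be told from cells with both.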

How the data were processed

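Kidney cells were profiled with 10× Genomics 3′ chemistry in 1 WT and 1 *Vsir*-/- library. According to the submitters' processing notes and the study's methods, the authors used Cell Ranger (version 3.1.0) and Seurat (version 3.2.3), kept genes in at least 5 cells and cells with at least 200 UMIs and at most 10% mitochondrial UMIs, and named the clusters. The notes name mm9 as the build. The deposited matrix holds raw whole-number UMI counts for each gene in each cell, and the deposited table of cells gives library, cluster, UMI total, and mitochondrial percent, which ran from 0 to 10 as the authors' filter implies. The lowest cell had 501 UMIs. UMI totals matched the matrix in all 5470 and 1844 cells.

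Libraries were assigned by genotype label. The members and lists were chosen with earlier results of these data known. Named genes were the members, the 5 genes most like each (at least 500 WT UMIs), and the 3 most abundant genes of each of 6 lists (VISTA partners, selectins, PSGL-1 enzymes, PSGL-1 tail partners, galectin-9 partners, and galectins with *Lgals3bp*), plus genes on which the text turns; 1 gene this rule names is not reported here. For each cluster of a library, UMIs were added up and divided by all UMIs of the same cells. Intervals are at the 95% level: Poisson for CPM, Clopper-Pearson for shares, exact conditional for ratios. Genes were tested against 2-fold where a cluster held at least 20 UMIs, with a pseudocount of 0.5; tested here means compared with this fold, with no p-value. Thinning drew 1000 UMIs per cell and left out 167 WT and 78 *Vsir*-/- shallower cells. A count of 0 was taken to allow 3 counts. Doublets were not removed. *Selplg* had no promoter window in the table used. Scripts were tested on simulated data and used Python 3.11.15, numpy 2.4.6, scipy 1.17.1, pandas 2.3.3, and matplotlib 3.10.9. Alternatives changed the cells kept, depth, weighting, denominator, filter, centring, and measure of likeness.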

Additional observations from a re-analysis of the deposited data

Results flagged for a closer look

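The change of *Lgals9* between the libraries went in opposite directions in different clusters, with counting intervals on opposite sides of 0. These intervals do not cover UMIs clumped in single cells, and in *Vsir*-/- B cells 11 of 42 UMIs lay in 1 cell. The log2 ratio (*Vsir*-/- over WT) was 1.03 in proliferating cells, 0.58 in B cells, and 0.41 in non–EM-like CD4+ T cells. It was −0.50 in neutrophils, −0.49 in M2-like R2 macrophages, and −0.45 in EM-like CD4+ T cells. The difference between clusters was not tested, since each genotype has 1 library. *Emcn*, *Kdr*, and *Plvap* together stood at 2241, 820, and 1349 CPM in the first 3 of these *Vsir*-/- clusters and at 163, 43.0, and 209 CPM in the last 3.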

How the results depend on the processing

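No paired analysis was possible because each genotype has 1 library. *Selplg* kept its direction in all 100 comparisons of a cluster with an alternative except in B cells after thinning, where 2 *Vsir*-/- UMIs remained. Of the 100, 82 stayed within counting error. *Selplg* was lower in 9 or 10 of 10 large clusters throughout. *Lgals9* had 82 unmoved, 10 moved, and 8 reversed. In B cells its log2 ratio reversed to −0.090 after thinning, from 3 *Vsir*-/- UMIs, and to −0.30 without cells holding *Emcn*, *Kdr*, or *Plvap*. In non–EM-like CD4+ T cells it reversed to −0.34 after thinning, −0.17 as a mean over cells, −3.44 without such cells, −1.56 in cells of at most 20000 UMIs, and −0.50 when centred on all genes, and in proliferating cells to −1.35 without such cells. Its median over 10 clusters, −0.18, was −0.0048 in cells with at most 5% mitochondrial UMIs, −0.28 without the cell richest in the gene, −0.52 without such cells, −0.35 in cells of at most 20000 UMIs, and −0.33 when centred. The settings on endothelial transcripts and on 20000 UMIs were chosen after seeing the data.

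*Vsir* moved in 6 of 117 values. Thinning gave 252 CPM in M2-like R2 macrophages and, from 40 UMIs, 367 in R1 macrophages, which had 285 CPM as a mean over cells. It lowered the shares of cells with *Vsir* to 24.9% in neutrophils, 22.2% in M2-like R2 macrophages, and 29.4% in R1 macrophages. Added up over 6 clusters, in which a gene can count more than once, there were 5257 calls of at least 2-fold lower and 14333 of higher. With no filter these were 12512 and 32646, with at least 100 UMIs 2325 and 7008, and when centred 7866 and 11703. Ranked by Spearman's rho, 2 of the 5 genes most like *Vsir* and 0 of those most like *Selplg* recurred. The counts limit small clusters most, since the *Vsir*-/- EM-like CD8+ and γδ T cell clusters each hold 28 cells.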
